A study of Homo sapiens with 4 samples.

Results

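MHC class I presentation genes were followed with CUT&Tag of CHAF1A. The cells were RBE, an established line grown from a human intrahepatic cholangiocarcinoma. The genes were 9 in all, taken by name from the RefSeq annotation of GRCh38 among 20037 protein-coding genes of chromosomes 1 to 22, X and Y: HLA-B, HLA-C, HLA-E, HLA-F, HLA-G, B2M, TAP1, TAP2 and NLRC5. Every peak from 5 kb before to 5 kb past each gene was counted, which gave 28 peaks of 97653 in the si-CHAF1A list and 20 of 76313 in the si-Ctrl list. The cells had received an siRNA against CHAF1A (si-CHAF1A, 2 samples) or a control siRNA (si-Ctrl, 2 samples), and both groups were collected 48 hours after transfection. Each group is the same line with no other change named in the labels, and whether its samples came from separate cultures is not stated. CHAF1A is the large subunit of CAF-1, a chaperone that deposits histones on newly replicated DNA. CUT&Tag uses an antibody to tether a transposase, which cuts and tags the DNA close to the protein of interest. Signal from a library with no specific antibody was not analysed here, so a peak does not by itself show that CHAF1A was bound.

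There is 1 peak list per group. It gives no values per sample, so no difference below can be set against a spread between replicates, and no p-value is given. The peaks carry the authors' fold enrichment, the reads at the peak's highest point (its summit) over the local background, and a −log10 q. From these the number of overlapping reads at each summit (the pileup) was solved. The most frequent background was 8.49 reads in the si-CHAF1A list and 6.34 in the si-Ctrl list. Read totals were not used here, and that background stands in for depth. A scaled pileup below is the pileup divided by this background of its own list. Intervals are 95% exact intervals. For a ratio of pileups they cover counting error alone. For a share of peaks they treat each peak as independent, which peaks of 1 gene may not be. They say nothing of the spread between samples.

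Class I molecules show peptides from inside the cell to CD8 T cells. HLA-B and HLA-C encode classical heavy chains. HLA-E, HLA-F and HLA-G encode non-classical ones that are read largely by natural killer cell receptors, and HLA-G is known mainly from the placenta. B2M encodes beta-2 microglobulin, the light chain that all of them need. TAP1 and TAP2 form the transporter that carries peptides into the endoplasmic reticulum, and NLRC5 encodes the transactivator that drives class I genes. Class I promoters are known for a site of NF-kappaB, a site of interferon regulatory factors and an SXY module, in which RFX, CREB or ATF and NF-Y proteins sit and to which NLRC5 is recruited.

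The bases just before the gene starts are shown because the peaks at the starts of HLA-C, B2M, TAP1 and TAP2 lay over them in both lists, and that of HLA-B in the si-CHAF1A list. The HLA-G stretch had no peak over it in either list and is shown for comparison. RefSeq promoter windows of GRCh38.p14 were found for 7 of the 9 genes, all but HLA-E and NLRC5. The 250 bases before the start are given in the direction of the gene. Capitals mark matches, on either strand, to CCAAT (the letters of NF-Y sites), GAAA followed after 2 further bases by GAAA (interferon regulatory factors), TGACG (CREB and ATF) and GGGCGG (SP1). They also mark NF-kappaB letters, either GGAATTTCC or the 10 bases in capitals nearest the beginning of the HLA-B stretch. The stretches are chr6:31357180-31357429 (minus strand) for HLA-B, chr6:31272093-31272342 (minus) for HLA-C, chr6:29827575-29827824 (plus) for the start of HLA-G most like them, chr15:44711267-44711516 (plus) for B2M, chr6:32853705-32853954 (minus) for TAP1 and chr6:32838740-32838989 (minus) for TAP2.
HLA-B: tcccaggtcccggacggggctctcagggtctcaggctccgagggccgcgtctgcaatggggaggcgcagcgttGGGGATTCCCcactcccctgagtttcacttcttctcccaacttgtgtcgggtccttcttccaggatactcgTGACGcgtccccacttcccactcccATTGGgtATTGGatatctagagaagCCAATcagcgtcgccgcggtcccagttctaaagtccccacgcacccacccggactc
HLA-C: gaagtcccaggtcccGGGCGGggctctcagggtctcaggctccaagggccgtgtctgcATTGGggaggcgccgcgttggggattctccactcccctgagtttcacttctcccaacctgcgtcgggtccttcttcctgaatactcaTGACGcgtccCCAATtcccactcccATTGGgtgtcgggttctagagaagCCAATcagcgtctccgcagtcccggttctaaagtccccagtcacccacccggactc
HLA-G: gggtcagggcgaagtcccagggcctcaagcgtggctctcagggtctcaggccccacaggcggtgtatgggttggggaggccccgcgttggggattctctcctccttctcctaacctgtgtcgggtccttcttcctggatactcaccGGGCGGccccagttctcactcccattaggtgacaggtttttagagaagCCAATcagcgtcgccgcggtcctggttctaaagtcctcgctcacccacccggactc
B2M: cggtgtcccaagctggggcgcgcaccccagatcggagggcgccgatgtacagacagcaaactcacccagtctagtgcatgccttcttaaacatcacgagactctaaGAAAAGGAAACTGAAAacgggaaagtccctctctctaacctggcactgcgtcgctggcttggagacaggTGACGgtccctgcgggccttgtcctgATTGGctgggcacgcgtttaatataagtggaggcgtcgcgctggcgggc
TAP1: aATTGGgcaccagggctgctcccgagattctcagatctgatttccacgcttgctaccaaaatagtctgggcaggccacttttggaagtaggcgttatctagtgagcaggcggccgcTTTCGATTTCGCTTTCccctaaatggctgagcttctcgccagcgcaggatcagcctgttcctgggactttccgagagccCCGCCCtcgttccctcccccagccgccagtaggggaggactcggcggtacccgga
TAP2: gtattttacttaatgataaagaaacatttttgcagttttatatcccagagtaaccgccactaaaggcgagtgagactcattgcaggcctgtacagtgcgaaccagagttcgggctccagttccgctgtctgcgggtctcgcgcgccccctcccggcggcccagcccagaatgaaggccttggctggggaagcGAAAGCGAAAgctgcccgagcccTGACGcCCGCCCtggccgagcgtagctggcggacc

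The HLA-B and HLA-C stretches were identical over 89.0% of their aligned positions, and that of HLA-F was 80.4% identical to HLA-B and 78.7% to HLA-C. The HLA-G stretch shown was 73.2% identical to HLA-B and 78.6% to HLA-C. The sources used here do not give how the authors treated reads that align to more than 1 place. Which copy a peak over such a stretch belongs to may therefore be uncertain, and this was not tested. Only these stretches were compared, so peaks elsewhere in these genes may share the uncertainty. The HLA alleles of RBE were not used here. HLA-E has no promoter window and was not compared, so its peak may share this uncertainty. The 7 genes have 10 such windows, as HLA-G and TAP1 have more than 1. The interferon regulatory factor letters were found in 4 of the 10 windows (1 each of HLA-F, B2M, TAP1 and TAP2), in 2 overlapping copies each at B2M and TAP1, against 2.71% of 22199 windows of protein-coding genes. CCAAT was found in 6 of the 10 (1 window of each gene but TAP2), against 32.7% of windows. TGACG was found in 4 of the 10 (HLA-B, HLA-C, B2M and TAP2), against 24.2%, and the longer TGACGTCA, which contains it, in 0 of the 10, against 2.01%. An NF-kappaB match was found in 1 of the 10 (HLA-B), against 0.446% of windows, and GGGCGG in 5 (1 each of HLA-C, HLA-G and TAP2, and both of TAP1), against 53.7%. A match is a run of letters and was not tested as a site. Only the letters named were searched, so a stretch without a match may still hold another form of a site.

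CHAF1A signal was found at 8 of the 9 genes in both lists, with the highest summit pileups at the starts of TAP1, TAP2 and B2M, at the PSMB8 start in the TAP1 window and at the lower-coordinate end of HLA-E. HLA-G had no peak in either list. Of all protein-coding genes, 85.0% had a si-CHAF1A peak within 5 kb, 82.3% a si-Ctrl peak, 79.5% both and 12.2% neither, so 8 of 9 is near the background. A si-CHAF1A peak only was found at 0 of the 9 genes, against 5.5% of all, and a si-Ctrl peak only at 0, against 2.8%. Over the promoter windows themselves (250 bases before to 50 past the start), 5 of 7 genes had a si-CHAF1A peak and 4 of 7 a si-Ctrl peak, against 55.7% and 54.9% of the 15843 protein-coding genes with such a window. Both lists had one at 4 of the 7, against 50.4% of all. HLA-B had a si-CHAF1A peak only, as did 5.3%, and 0 of the 7 had a si-Ctrl peak only, against 4.46%. HLA-E and NLRC5 have no such window and are outside these counts. An unshared si-Ctrl peak at a boundary of NLRC5 is given below. Fold enrichment over the members' peaks ranged between 2.48 and 7.01 (median 3.11) in the si-CHAF1A list and between 2.69 and 8.12 (median 4.25) in the si-Ctrl list. The median over all peaks was 3.19 in the si-CHAF1A list and 3.72 in the si-Ctrl list.

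**Figure D1:**
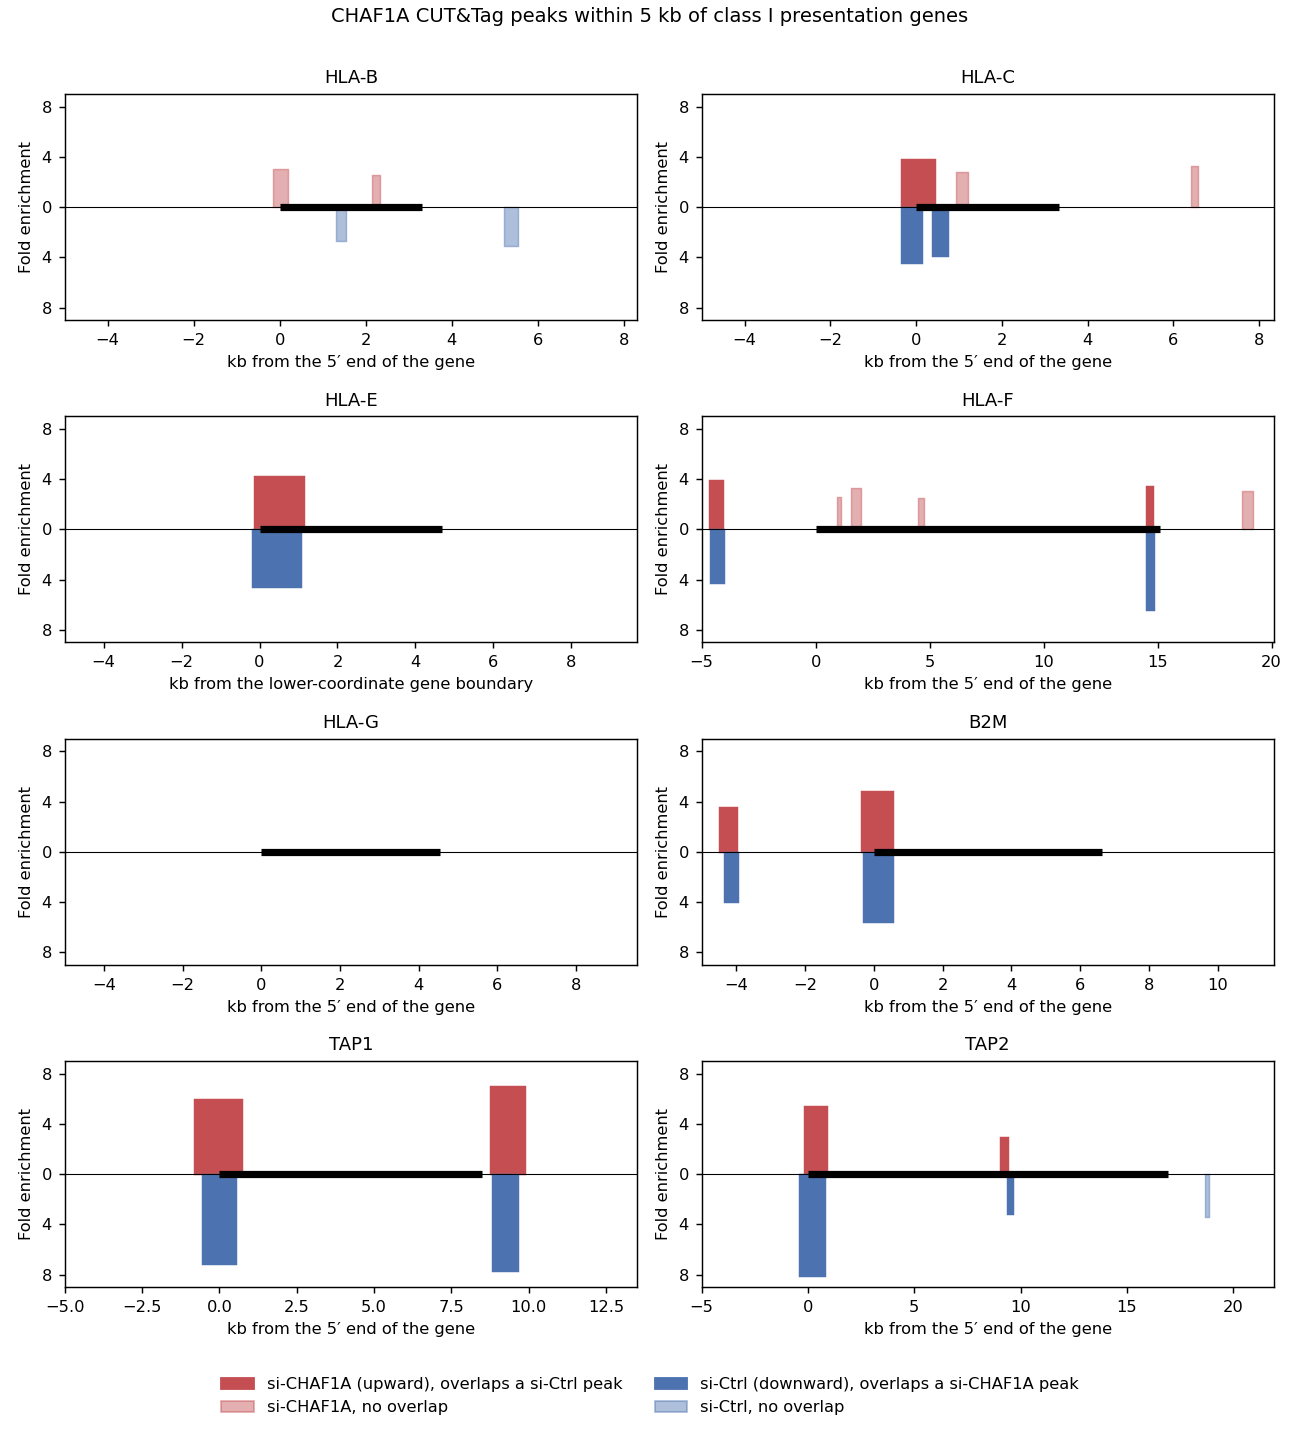
Peaks within 5 kb of 8 class I presentation genes, by distance in kb from the 5′ end of the gene (for HLA-E, from its lower-coordinate boundary) and fold enrichment; bars point up for si-CHAF1A and down for si-Ctrl, pale bars overlap no peak of the other list, and the thick line is the gene. Solid bars stand opposite each other at HLA-C, HLA-E, HLA-F, B2M, TAP1 and TAP2, all bars at HLA-B are pale, and HLA-G has none.

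TAP1 and TAP2, the transporter genes, lie side by side on chromosome 6 with the immunoproteasome genes PSMB8 and PSMB9 between and beside them. At the start of TAP1 the summit held 146 reads in the si-CHAF1A list and 128 in the si-Ctrl list, with fold enrichments of 5.99 and 7.18 and −log10 q of 61.2 and 62.8. The si-CHAF1A peak spanned chr6:32852964-32854527 (1564 bp) and the si-Ctrl peak chr6:32853160-32854265 (1106 bp). Both summits fell on the same base, 365 bp before the start of TAP1 and 123 bp before that of PSMB9, which is read in the other direction. Each peak covered the starts of both genes, so it belongs to neither alone.

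The scaled pileup at the TAP1 start was 17.2 in si-CHAF1A and 20.2 in si-Ctrl, a ratio of 0.852 (0.667 to 1.09). A second peak in the TAP1 window, past its 3′ end, covered the start of PSMB8. It held 147 reads in the si-CHAF1A list and 116 in the si-Ctrl list, with scaled pileups of 17.3 and 18.3 (ratio 0.946, 0.737 to 1.22). Both intervals include 1, so neither site differed between the lists beyond counting error.

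At the start of TAP2 the summit held 92 reads in the si-CHAF1A list and 102 in the si-Ctrl list, with fold enrichments of 5.40 and 8.12 and −log10 q of 35.2 and 55.6. The peaks spanned chr6:32837844-32838942 and chr6:32837919-32839147, and their summits lay 164 and 158 bp before the start, in the stretch of sequence shown. The scaled pileup was 10.8 in si-CHAF1A and 16.1 in si-Ctrl, a ratio of 0.674 (0.503 to 0.902), lower in si-CHAF1A by more than counting error. Ratios below 1 were common in these lists, with a median of 0.867 over all 45570 shared pairs of peaks. Divided by that median, the TAP2 ratio was 0.777 (0.580 to 1.04), an interval that includes 1. The intervals at the neighbouring TAP1 and TAP2 starts overlap, and the difference between the 2 ratios was not tested.

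TAP2 also had a weak peak inside the gene in both lists, overlapping by 53 bp, with 30 reads in the si-CHAF1A list and 23 in the si-Ctrl list. A further weak peak past the 3′ end (chr6:32819859-32820079, 24 reads, −log10 q 5.45) was in the si-Ctrl list only. It lies between TAP2 and HLA-DOB, a class II gene, and within 5 kb of both.

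B2M carried its strong peak over the start in both lists. The summit held 96 reads in the si-CHAF1A list and 81 in the si-Ctrl list, with fold enrichments of 4.81 and 5.55 and −log10 q of 32.6 and 32.0. The peaks, chr15:44711141-44712078 and chr15:44711215-44712078, ended on the same base, and their summits lay 180 and 106 bp before the start, both in the stretch shown. PATL2, a gene read in the other direction, starts at 44711390, under the same peaks, and both summits lay nearer to its start than to that of B2M. Each peak covered the starts of both genes, so it belongs to neither alone. The scaled pileup was 11.3 in si-CHAF1A and 12.8 in si-Ctrl, a ratio of 0.885 (0.652 to 1.20). A weaker shared peak about 4 kb before the gene, inside PATL2, held 56 reads in the si-CHAF1A list and 49 in the si-Ctrl list (ratio 0.853, 0.571 to 1.28). Neither differed between the lists beyond counting error.

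HLA-E had a single, broad peak in each list, at chr6:30489363-30490645 (1283 bp) in si-CHAF1A and chr6:30489322-30490564 (1243 bp) in si-Ctrl. The summits held 99 and 67 reads, with fold enrichments of 4.23 and 4.56, and lay 675 and 732 bp inside the gene from its lower-coordinate boundary. The scaled pileup was 11.7 in si-CHAF1A and 10.6 in si-Ctrl. Its ratio of 1.10 (0.801 to 1.53) was the highest of the 11 shared pairs, and its interval includes both 1 and the median over all pairs. Taken from the deposited fold enrichments the ratio was 0.929, below 1 and no longer the highest. The local background that the peak caller used there was 2.67 times the list's own most frequent background in si-CHAF1A and 2.20 times in si-Ctrl. That ratio of 1.21 lay above the upper quartile of 1.08 over all shared pairs, and at the other 10 shared pairs of the class I presentation genes it was between 0.923 and 1.08.

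Of the classical genes, HLA-C had a peak over its start in both lists. It held 54 reads in the si-CHAF1A list and 45 in the si-Ctrl list, with −log10 q of 14.2 and 14.3 and summits 106 and 75 bp before the start. The scaled pileup was 6.36 in si-CHAF1A and 7.10 in si-Ctrl, a ratio of 0.896 (0.592 to 1.36). The si-CHAF1A peak (chr6:31271652-31272435, 784 bp) also reached a second si-Ctrl peak inside the gene (chr6:31271339-31271713, 42 reads). The other si-CHAF1A peaks of HLA-C were 1 inside the gene (43 reads) and 1 past its 3′ end (36 reads), with −log10 q of 6.97 and 7.38, and had no si-Ctrl partner.

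At HLA-B no peak of one list overlapped a peak of the other. The si-CHAF1A list had a peak over the start (chr6:31356994-31357342, 43 reads, fold enrichment 3.03, −log10 q 7.91) and 1 inside the gene (40 reads). Its summit at the start lay 137 bp before the first base, in the stretch shown, between the NF-kappaB match at 177 to 168 and the TGACG match at 106 to 102. The si-Ctrl list had 1 peak inside the gene (26 reads, −log10 q 3.85) and 1 past its 3′ end (29 reads, −log10 q 5.64). At equal scaled pileup the si-CHAF1A peak over the start would have held 32.1 reads in the si-Ctrl list. The lowest pileup called there at the correspondingly scaled local background is 26 reads, so a site of the same height would have stood a few reads above the threshold. Of all si-CHAF1A peaks with −log10 q below 10, 26.5% were overlapped by a si-Ctrl peak.

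HLA-F had 6 si-CHAF1A and 2 si-Ctrl peaks, and none in either list lay over its start. Protein-coding genes with windows of similar length (0.8 to 1.25 times, 3630 genes) had a median of 2 in each list. A pair about 4 kb before the gene was shared (42 reads in si-CHAF1A, 34 in si-Ctrl, ratio 0.922, 0.573 to 1.49), with summits 446 bp apart. The other shared pair lay in the 3′ part of the gene, inside the antisense RNA gene HLA-F-AS1, at chr6:29737905-29738244 in si-CHAF1A and chr6:29737943-29738282 in si-Ctrl. It held 39 reads in the si-CHAF1A list and 55 in the si-Ctrl list, with fold enrichments of 3.49 and 6.38.

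That HLA-F pair had scaled pileups of 4.59 in si-CHAF1A and 8.68 in si-Ctrl, a ratio of 0.530 (0.342 to 0.813). It was the lowest ratio of the 11 shared pairs and the only one with an interval below the median over all pairs; divided by that median it was 0.611 (0.395 to 0.938). The summits of the 2 peaks lay 275 bp apart, so neither shared pair of HLA-F compares the same base. The remaining 4 si-CHAF1A peaks of HLA-F held between 31 and 46 reads with −log10 q between 3.90 and 8.67, and no si-Ctrl peak lay within 3 kb of any of them.

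HLA-G had no peak within 5 kb in either list. The nearest si-CHAF1A peak lay 6998 bp past the gene (fold enrichment 3.48, −log10 q 7.41) and the nearest si-Ctrl peak 14451 bp past it (5.86 and 18.1). Among the 3838 protein-coding genes with windows of similar length, 23.7% had no si-CHAF1A peak and 28.4% no si-Ctrl peak. The lowest pileup called at the most frequent background was 23 reads in the si-CHAF1A list and 20 in the si-Ctrl list, so weaker signal at HLA-G was not detectable at this depth.

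NLRC5, on chromosome 16, had 10 si-CHAF1A and 6 si-Ctrl peaks, against medians of 4 and 3 over the 1804 protein-coding genes with windows of similar length. A single pair overlapped, about 11 kb inside the gene (chr16:57000721-57000898 in si-CHAF1A and chr16:57000445-57000908 in si-Ctrl), with summits 1 bp apart. It held 34 reads in the si-CHAF1A list and 36 in the si-Ctrl list, a ratio of 0.705 (0.428 to 1.16). All 10 si-CHAF1A peaks were weak, with fold enrichments between 2.68 and 3.20, pileups between 27 and 42 reads and −log10 q between 4.19 and 8.32. Their shared 1 of 10 stands against 26.5% of all si-CHAF1A peaks with −log10 q below 10, and its interval (0.253% to 44.5%) includes that share.

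The strongest NLRC5 peak of the si-Ctrl list lay at the lower-coordinate boundary of the gene (chr16:56989511-56989704, summit 23 bp outside), with 45 reads, 4.54-fold enrichment and −log10 q of 14.6. No si-CHAF1A peak overlapped it, and the nearest lay 729 bp away, outside the gene (chr16:56988475-56988782, 42 reads). The strand of NLRC5 was not used here, so whether its lower-coordinate boundary is its start is not given. At equal scaled pileup the si-Ctrl peak would have held 60.3 reads in the si-CHAF1A list, where 30 reads are the lowest called at the correspondingly scaled local background. The same held for 2 peaks inside the gene, at chr16:57060405-57060614 (39 reads, fold enrichment 4.62) and chr16:57072091-57072389 (38 reads, 4.23). They would have held 52.2 and 50.9 reads, with 27 and 28 as the lowest called. None of these 3 si-Ctrl peaks with −log10 q between 10 and 20 was shared, whereas 71.0% of all such si-Ctrl peaks were. The interval of 0 of 3 reaches 70.8%. Over all members, 4 of 7 such si-Ctrl peaks were shared (57.1%, 18.4% to 90.1%), and that interval includes 71.0%.

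**Figure D2:**
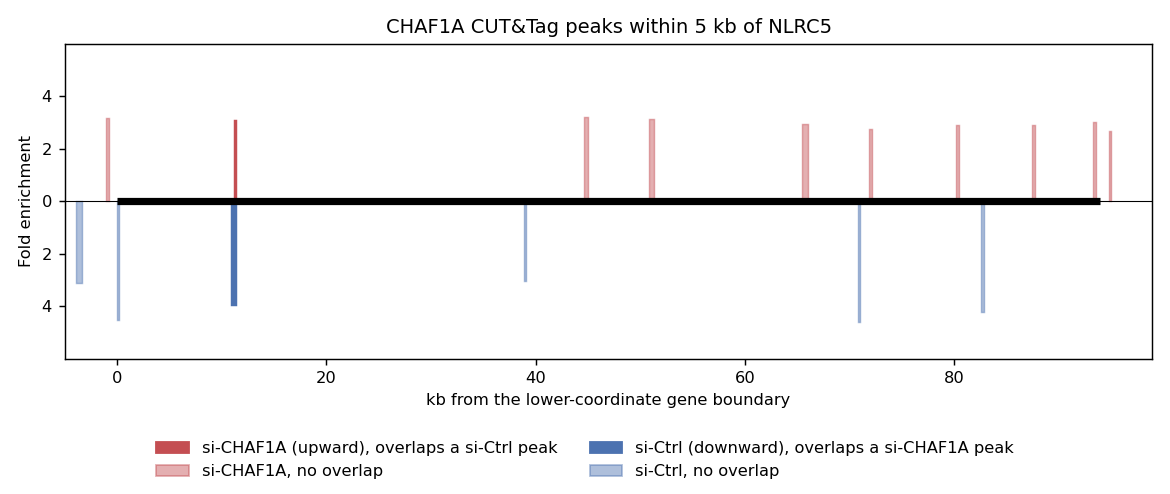
Peaks within 5 kb of NLRC5, by distance in kb from the lower-coordinate gene boundary and fold enrichment, drawn as bars up for si-CHAF1A and down for si-Ctrl, pale where no peak of the other list overlaps; the thick line is the gene. A single solid pair stands about 11 kb inside the gene, and the si-Ctrl bars at the boundary and at its 2 sites farthest right overlap no bar above.

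Sharing among the members' peaks followed strength, as it did in the lists as a whole. Of the 28 si-CHAF1A peaks, 11 (39.3%, 21.5% to 59.4%) overlapped a si-Ctrl peak, against 47.5% of all si-CHAF1A peaks. Of the 20 si-Ctrl peaks, 12 (60.0%, 36.1% to 80.9%) overlapped a si-CHAF1A peak, against 61.9% of all. With −log10 q below 10 these were 3 of 20 si-CHAF1A peaks and 2 of 7 si-Ctrl peaks, against 26.5% and 43.2% of all such peaks. With −log10 q between 10 and 20 they were 3 of 3 and 4 of 7, against 67.0% and 71.0%. With −log10 q of 20 or more they were 5 of 5 and 6 of 6, against 96.9% and 91.2%. The intervals of 39.3% and 60.0% include the shares over all peaks.

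The 11 shared pairs had a median ratio of scaled pileup of 0.885, beside 0.867 over all shared pairs and 0.825 over the 7192 pairs at promoter windows. Of the 11, 10 were below 1, as were 71.6% of all shared pairs. The pair in the 3′ part of HLA-F was at or below 1/1.5, as were 18.6% of all, and 0 of the 11 reached 1.5, against 1.03% of all. Intervals lay wholly below 1 at that HLA-F pair and at the TAP2 start, and wholly above 1 at 0 of the 11. How many of all shared pairs have an interval below 1, or below the median, is not given here. Such intervals are therefore not shown to be particular to these genes. The ratios ran slightly below 1 in these genes, as they did over all shared pairs.

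**Figure D3:**
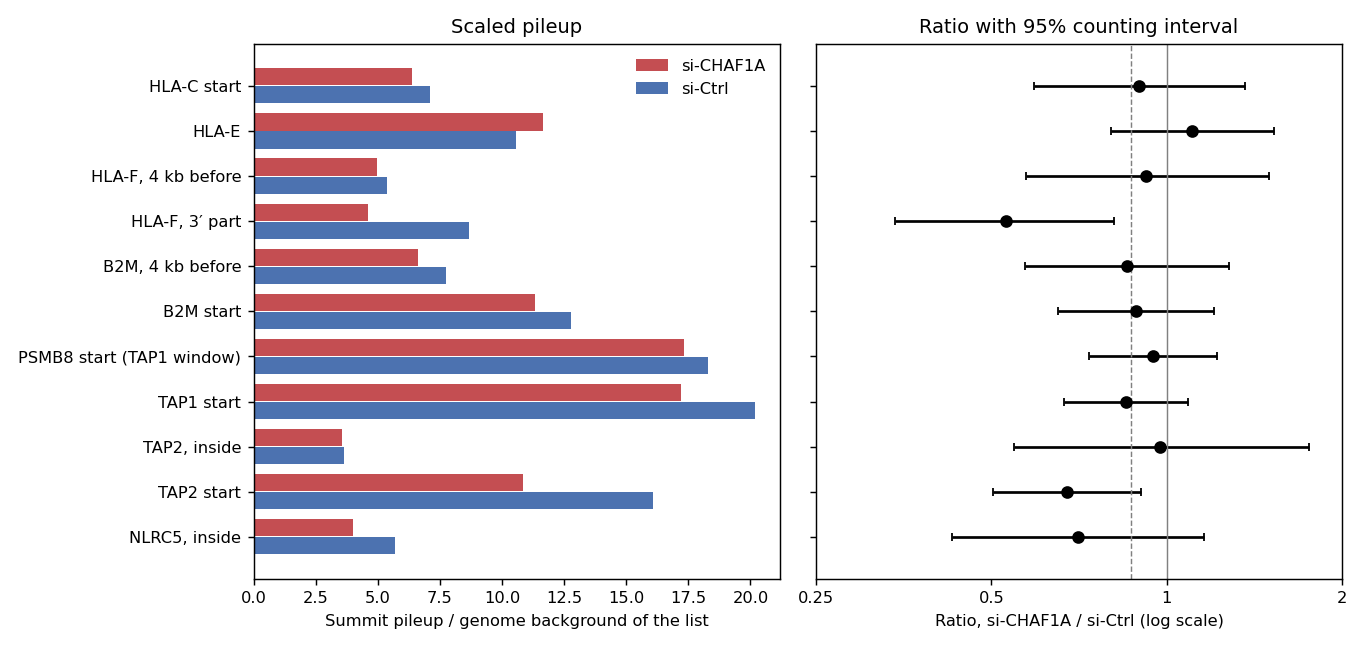
Scaled summit pileup (reads at the summit over the most frequent background of the list) in si-CHAF1A and si-Ctrl at the 11 shared pairs, left, and their ratio with 95% counting intervals on a log scale, right; the solid line marks 1 and the dashed line the median over all shared pairs (0.867). The TAP1 and PSMB8 starts are highest, and the intervals at the 3′ part of HLA-F and at the TAP2 start lie below 1.

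**Figure D4:**
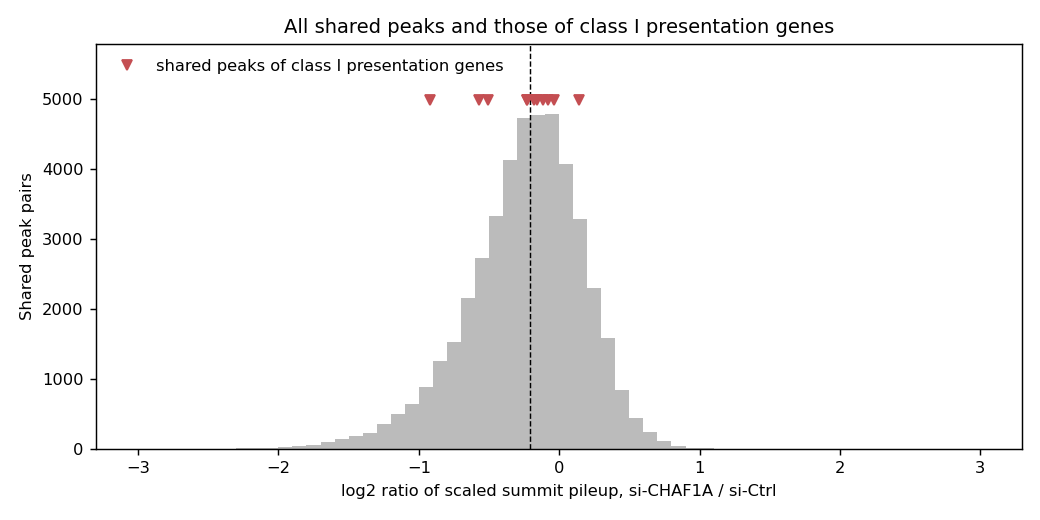
Log2 ratio of scaled summit pileup, si-CHAF1A over si-Ctrl, for all 45570 shared pairs (grey bars, number of pairs per bin) with the 11 pairs of class I presentation genes as triangles; the dashed line is the median of all pairs. The triangles lie within the grey distribution, with the 3′ part of HLA-F farthest to the left.

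Other genes of the pathway were taken as lists. Of 12 genes of peptide processing and loading, all 12 had a peak within 5 kb in both lists, and so had all 13 regulators of class I genes, against 79.5% of protein-coding genes. PSMB8 and PSMB9, which encode catalytic subunits of the immunoproteasome, owed their strongest peaks to the sites in the TAP1 window given above. Of 9 class I-like genes, 8 had a si-CHAF1A peak and 9 a si-Ctrl peak, against 85.0% and 82.3% of protein-coding genes. MR1, which presents microbial metabolites to mucosal T cells, had the si-Ctrl peak only (fold enrichment 5.04, −log10 q 21.3), as did 2.8% of protein-coding genes.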

How the data were processed

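CUT&Tag of CHAF1A was deposited as 2 peak lists for 4 samples. Per the submitters' processing notes, reads were handled on hg38 with deepTools 3.4.3, MACS2 2.1.2, fastp 0.20.1 and Bowtie2 2.2.5, listed in no order. The sources used here do not give whether samples were pooled or whether a control library set the background. The list named NC was read as si-Ctrl and the list named si as si-CHAF1A, which match the titles only in part. The deposited fold enrichment is a linear ratio and the deposited p and q are −log10 values (lowest −log10 p 5.00); the deposited score was not used. Peaks off chromosomes 1 to 22, X and Y were left out (886 in si-CHAF1A, 868 in si-Ctrl), and neither list had rows on chromosome 6 alternate sequences.

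Pileup and background at each summit were solved from fold = (pileup + 1)/(background + 1) and the Poisson tail, for −log10 p under 290; 99.2% of si-CHAF1A and 99.1% of si-Ctrl peaks could be solved, and 99.99% of the solved pileups were whole to within 0.02 reads in each list. Peaks were shared at an overlap of at least 1 bp, and each si-CHAF1A peak was paired with the si-Ctrl peak of most shared bases. Intervals are Clopper-Pearson or exact conditional binomial, at 95%. The solving and overlap steps were tested on simulated data. Genes, starts and sequences came from RefSeq tables (GRCh38.p14). All 9 members are named; other genes are named where they have a peak in 1 list only or share one with a member. Some marker genes are not reported here. The members and lists were chosen with earlier results of these data known. Alternatives were windows of 1 and 10 kb, a minimum −log10 q of 5 or 10, lists cut to the same length, 50% reciprocal overlap and 2 other scalings of the ratio. Python 3.11.15 was used with scipy 1.17.1, pandas 2.3.3, matplotlib 3.10.9 and numpy 2.4.6.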

Additional observations from a re-analysis of the deposited data

How the results depend on the processing

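No paired analysis was possible because each group has 1 peak list with no values per sample, and for the same reason no sample could be left out. With −log10 q of at least 10, 8 si-CHAF1A and 13 si-Ctrl peaks were left near the genes and 100.0% of the si-CHAF1A ones were shared; 6 genes kept a si-CHAF1A peak and 7 a si-Ctrl peak. The other 35 counts and shares under the alternatives stayed within 1.5 times the reported count or within the reported interval. With the 10 kb window HLA-G gained a si-CHAF1A peak, for 9 genes. All 22 rescaled ratios stayed within their counting intervals. Taken from the deposited fold enrichments, the HLA-E ratio was 0.929, below 1. Sites under 23 reads in si-CHAF1A and 20 in si-Ctrl, the lowest pileups called at the most frequent background, were not detectable. At equal scaled pileup, 23 of the 25 unshared peaks would have held more reads in the other list than the lowest called at the local background scaled to it. That takes each observed pileup as the true height, without counting error. The margins differ, for example 24.6 reads against 24 at an HLA-F si-CHAF1A peak and 60.3 against 30 at an NLRC5 si-Ctrl peak.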

Other observations

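Of 10 class II presentation genes, which are normally used by professional antigen-presenting cells, 9 had a peak within 5 kb in each list and 8 in both. Of all protein-coding genes, 79.5% had a peak in both. HLA-DRA had a si-CHAF1A peak only (fold enrichment 2.95, −log10 q 4.82), as did 5.5% of protein-coding genes. HLA-DOB had si-Ctrl peaks only, and its strongest was the weak site it shares with the TAP2 window. The biliary epithelial markers KRT7, KRT19, EPCAM, SOX9 and CDH1 had a peak in both lists. Among leukocyte markers, CD14, LYZ and ITGAM also had a peak in both, PTPRC had a si-Ctrl peak only (fold enrichment 6.26, −log10 q 20.6), and CD3E had none in either. Of protein-coding genes, 85.0% had a si-CHAF1A peak and 82.3% a si-Ctrl peak, and a peak is not a level of RNA, so these peaks do not check the identity of the cells.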
